A study of Mus musculus with 2 samples.

Results

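The 8 genes Cpt1a, Acadm, Acadl, Acaa2, Hadha, Ehhadh, Pdk4 and Acot1 encode enzymes that break down fatty acids or steer their use. They were chosen by name, with earlier results of these data known, from the 16665 genes listed in either of 2 single-cell RNA-seq libraries. No rule on their measured values was used. All 8 are listed in both libraries. The libraries were made from enteroids, three-dimensional epithelial cultures grown from ileal crypts of 4-month-old C57Bl6/129sv mice. The control library is labelled as wild-type enteroids given ethanol, whereas the study's methods describe Taf4 lox/lox enteroids given 4-hydroxytamoxifen (4-OHT), so the exact control could not be settled. The other library is labelled as knockout enteroids given 4-OHT (1 µM for 3 days), which activates a Cre recombinase driven by the villin promoter in Taf4 lox/lox::VilCreERT2 epithelium (hereafter Taf4 IEC), and both hold live cells sorted by flow cytometry. With 1 library per group and no label naming animals or cultures, no test of the genotype was possible, and every interval given covers counting error only.

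Fatty acids are activated to acyl-CoA in the cytosol and enter mitochondria as carnitine esters, a step controlled by Cpt1a. Inside, acyl-CoA dehydrogenases such as Acadm and Acadl, the trifunctional protein of Hadha and Hadhb, and the thiolase Acaa2 shorten the chain by rounds of beta oxidation, while peroxisomes shorten other substrates with enzymes such as Ehhadh. The acetyl-CoA that results can be burned or turned into ketone bodies, and many of these genes are known targets of the nuclear receptors of the Ppar family.

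Upstream sequences are shown for 3 of the genes: Hadha, because its promoter is shared with that of its partner Hadhb, and Ehhadh and Acot1, because they stood farthest from the other members in the comparison of the libraries. They are the 250 bases before each gene's start in RefSeq (build GRCm38.p6), written 5′ to 3′ on the strand of the gene, with the GC box GGGCGG and the CCAAT box, on either strand, in capitals.
Hadha, chr5:30154981-30155230, minus strand: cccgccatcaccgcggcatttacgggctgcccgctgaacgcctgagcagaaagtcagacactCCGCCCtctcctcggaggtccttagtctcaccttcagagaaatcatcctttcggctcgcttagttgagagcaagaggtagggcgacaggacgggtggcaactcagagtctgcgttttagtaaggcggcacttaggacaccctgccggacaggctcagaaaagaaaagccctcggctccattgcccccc
Ehhadh, chr16:21787835-21788084, minus strand: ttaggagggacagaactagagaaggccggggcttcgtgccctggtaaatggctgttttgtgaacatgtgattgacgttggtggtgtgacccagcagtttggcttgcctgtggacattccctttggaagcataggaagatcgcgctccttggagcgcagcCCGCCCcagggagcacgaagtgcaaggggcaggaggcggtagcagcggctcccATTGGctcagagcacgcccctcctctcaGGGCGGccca
Acot1, chr12:84009252-84009501, plus strand: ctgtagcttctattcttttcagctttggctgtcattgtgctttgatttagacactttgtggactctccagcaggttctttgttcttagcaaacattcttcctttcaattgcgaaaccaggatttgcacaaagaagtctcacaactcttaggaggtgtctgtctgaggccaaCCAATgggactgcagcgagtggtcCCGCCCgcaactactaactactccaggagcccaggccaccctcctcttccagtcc
The start of Hadhb lies 273 bases from that of Hadha on the opposite strand, so the whole Hadha stretch lies between the 2 genes. It holds 1 GC box and no CCAAT box. The Ehhadh stretch holds 2 GC boxes and 1 CCAAT box, and that of Acot1 holds 1 of each. Among all 32851 promoters of the table, 32.7% hold a GC box and 33.8% a CCAAT box in the same window. The direct repeat of the half-site AGGTCA with any single base between both copies, the type of element that Ppar receptors bind, was found in 0.0335% of all promoters and in none of the 7 members with an entry (Acaa2 had none). A lone half-site was found in 14.0% of all promoters and, among the members, in those of Cpt1a and Acadm. A missing match says only that these letters are not in this window.

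The control library held 2563 cells and 39947009 UMIs (unique molecular identifiers, each a counted transcript), and the Taf4 IEC library 1811 cells and 24990128 UMIs. The median depth was 16749 against 2254 UMIs per cell, and 17.3% against 49.1% of the cells had fewer than 2000 UMIs. Levels are therefore given as UMIs per 10000 UMIs of the same cells, summed over cells. Taf4 itself was listed at 0.0696 UMIs per 10000 in the control and 0.0944 in Taf4 IEC enteroids, so these 3′ counts do not show a loss of its RNA and the genotype rests on the label; whether the counted 3′ end lies in the deleted part was not tested. The epithelial gene Epcam stood at 12.6 and 11.6, and 7 and 6 of 10 markers of immune, stromal and vessel cells were at 0, with a summed level of 0.0255 and 0.0224 UMIs per 10000. The libraries shared 2 cell barcodes. The enterocyte gene Apoa1 stood at 1.88 in the control and 5.90 in Taf4 IEC enteroids and Vil1 at 1.06 and 2.09, values that bear on every comparison of whole libraries below, since the share of a cell type and the RNA per cell of that type cannot be told apart in such sums.

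Over all cells, 6 of the 7 members with at least 200 UMIs were higher in Taf4 IEC enteroids, as were 65.3% of all genes, and Acot1 was lower. The peroxisomal gene Ehhadh was the one member past 2-fold higher, and none was past 2-fold lower. In the same comparison 5.52% of 10002 genes were at least 2-fold higher and 3.48% at least 2-fold lower. The median log2 ratio of the 7 members was 0.28, beside 0.16 for all genes, and with mitochondrial and ribosomal RNA left out of the total these medians were 0.10 and -0.03.

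Cpt1a, the outer-membrane carnitine acyltransferase, gave 517 UMIs in control enteroids (0.129 UMIs per 10000, 95% interval 0.119 to 0.141) and 383 in Taf4 IEC enteroids (0.153, interval 0.138 to 0.169). Its log2 ratio of Taf4 IEC over control was 0.24 (interval 0.05 to 0.44), an interval that holds the median of all genes, and it was below 0 in 2 of 11 alternatives. The dehydrogenases that open each round of beta oxidation were both higher. Acadm, for medium chains, stood at 0.816 in control enteroids (interval 0.788 to 0.845) and 1.04 in Taf4 IEC enteroids (0.998 to 1.08), for a log2 ratio of 0.35. Acadl, for long chains, stood at 0.941 (0.911 to 0.971) and 1.26 (1.21 to 1.30), for a log2 ratio of 0.42. Neither pair of counting intervals overlapped, but 65.3% of all genes were higher in this comparison, and the share with intervals apart is not given.

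The enzymes of the later steps were also higher. Hadha, the trifunctional protein's alpha subunit, stood at 1.38 in control enteroids (interval 1.34 to 1.42) and 1.68 in Taf4 IEC enteroids (1.63 to 1.73), for a log2 ratio of 0.28. Hadhb, its beta subunit and the gene on the other side of the promoter printed above, stood at 1.24 and 1.75 with a log2 ratio of 0.49 (interval 0.43 to 0.55). The 2 subunits were thus higher in the same library, as were 65.3% of all genes. Within the cell classes described below, their log2 ratios had opposite signs in enterocyte-like cells as named. Hadha stood at -0.14 there (interval -0.24 to -0.04) and Hadhb at 0.18 (0.08 to 0.29). Hadha and Hadhb shared a sign in stem-like (0.11 and 0.34), Paneth/goblet-like (-0.18 and -0.38) and enteroendocrine-like cells (0.20 and 0.34). The mitochondrial thiolase Acaa2 stood at 1.89 (1.85 to 1.94) and 2.29 (2.23 to 2.35), for a log2 ratio of 0.28.

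Ehhadh, the bifunctional hydratase and dehydrogenase of peroxisomes, rested on 481 and 655 UMIs. Its level was 0.120 in control enteroids (interval 0.110 to 0.132) and 0.262 in Taf4 IEC enteroids (0.242 to 0.283), a 2.18-fold difference with a log2 ratio of 1.12 (0.95 to 1.29). The log2 ratio was 0.94 with mitochondrial and ribosomal RNA out of the total, 0.97 with the libraries scaled to an equal median gene, 0.70 with every cell thinned to 2000 UMIs (shallower cells left out) and, with the cell classes described below weighted as in control enteroids, 0.60 or 0.79 depending on how 1 control cluster is classed (alternatives chosen after seeing the data), each under the 2-fold line.

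Acot1, a cytosolic thioesterase that splits acyl-CoA back into free fatty acid, went the other way, with 5809 UMIs in the control and 2039 in Taf4 IEC enteroids. Its level was 1.45 (interval 1.42 to 1.49) against 0.816 (0.781 to 0.852), for a log2 ratio of -0.83 (-0.91 to -0.76). It was past 2-fold lower (-1.02) with mitochondrial and ribosomal RNA out of the total. In the last 500 bases of its longest transcript, which a 3′ assay reads, 12.9% of all 50-base words also occur in Acot2, so a part of its count is uncertain, whereas no such word of the other 7 members occurs in another gene. Acot2 itself gave 273 and 158 UMIs and a log2 ratio of -0.11 (-0.40 to 0.18). Pdk4, the kinase that shuts off pyruvate dehydrogenase when fat is burned, gave 4 UMIs in each library and was not compared.

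**Figure D1:**
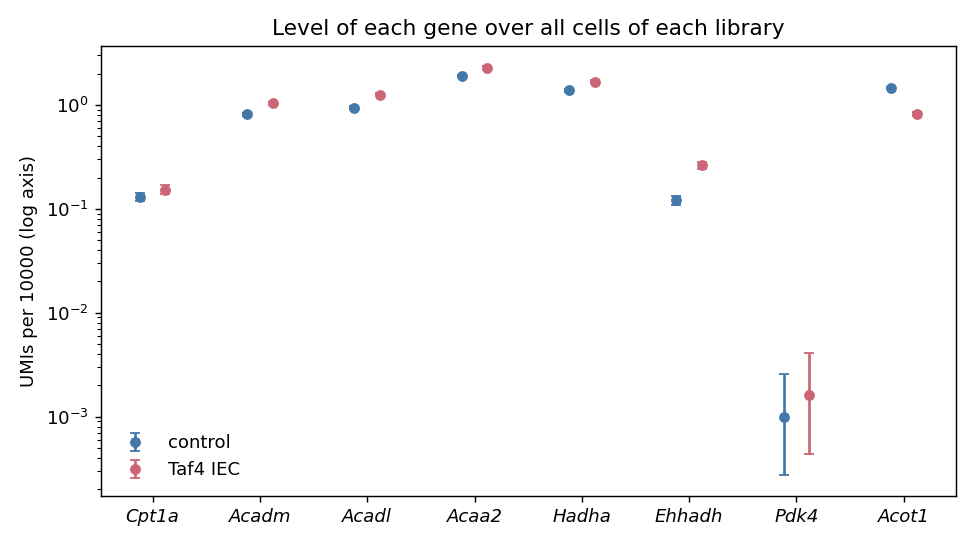
UMIs per 10000 (log axis) of each of the 8 genes over all cells, blue for the control and red for the Taf4 IEC library, with 95% exact Poisson intervals that cover counting error only. Acot1 is the one gene whose red point lies clearly below its blue point, and Pdk4 rests on 4 UMIs per library.

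To see in which cells the genes were used, each library was clustered on its own without these genes or the other genes of the pathway, and clusters were named from fixed markers. The stem-like class held 1070 control and 446 Taf4 IEC cells, the enterocyte-like class 212 and 311, the Paneth/goblet-like class 279 and 185, and the enteroendocrine-like class 260 and 201, while 15 Taf4 IEC cells were tuft-like and 742 and 653 cells stayed unnamed. Several stem-like clusters were led by genes of DNA replication or mitosis rather than by stem markers. Enterocyte-like cells gave 11.0% of the UMIs of the control and 36.7% of those of the Taf4 IEC library, and stem-like cells 55.8% and 36.7%. These enterocyte-like shares rest on unlike naming. A cluster led by Tmem237, a gene of the ciliary transition zone, was present in each library, and in Taf4 IEC enteroids it had 3 enterocyte markers and counts as enterocyte-like (149 cells, 18.8% of all UMIs), while in the control it had none and stayed unnamed (296 cells, 12.8% of all UMIs, Apoa1 at 0.227). With that control cluster joined to the class, a choice made after seeing the data, the control share was 23.8%. Apoa1 stood at 15.8 in control enterocyte-like cells against 0.0731 in stem-like cells, and at 15.7 against 0.0917 in Taf4 IEC enteroids.

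Within each library, 6 of the 7 counted members were higher in enterocyte-like than in stem-like cells, as were 36.5% of all genes in the control and 31.4% in Taf4 IEC enteroids, and Acot1 was lower. In the control 4 members were at least 2-fold higher and 1 lower, where 12.8% of 10363 genes were higher and 32.4% lower by that much, and in Taf4 IEC enteroids 5 were higher and 1 lower, against 9.11% and 27.2% of 9876 genes. With the Tmem237-led control cluster joined to the class, 2 members (Hadha and Ehhadh) were past 2-fold higher in the control, with log2 ratios of 1.01 and 1.09, and Acot1 had a log2 ratio of -0.84. The shares of all genes above belong to the class as named, and none is given for the joined class. Of the 7, Ehhadh differed most, at 0.0879 UMIs per 10000 in control stem-like and 0.294 in control enterocyte-like cells (log2 ratio 1.74, interval 1.41 to 2.07). In the Taf4 IEC library it stood at 0.112 and 0.487 (log2 ratio 2.12, interval 1.80 to 2.44). Hadha stood at 1.16 in control stem-like and 2.89 in control enterocyte-like cells (log2 ratio 1.32), and at 1.25 and 2.62 in Taf4 IEC enteroids (1.07). With cells thinned to a depth of 2000 UMIs, 21.3% of control stem-like and 40.9% of control enterocyte-like cells held a Hadha UMI, and 19.6% and 39.6% in Taf4 IEC enteroids, where the shares at full depth were 85.0%, 93.4%, 64.3% and 78.5%.

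Acadm and Acadl had log2 ratios of enterocyte-like over stem-like cells of 1.30 and 1.17 in the control and of 1.04 and 0.64 in Taf4 IEC enteroids. Those of Cpt1a were 0.88 and 1.16, and those of Acaa2 0.55 and 1.20. Paneth/goblet-like and enteroendocrine-like cells held the lowest control levels of Acadm, Acadl, Acaa2 and Hadha: Hadha stood at 0.816 and 0.923 there, Acadl at 0.529 and 0.724 and Acadm at 0.594 and 0.518, the intervals of the last pair overlapping. Pdk4 gave 3 of its 4 UMIs in enterocyte-like cells in each library.

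Acot1 had the opposite order. It stood at 1.85 UMIs per 10000 in control stem-like cells (interval 1.79 to 1.91), against 0.715 in enterocyte-like (0.638 to 0.799), 0.788 in Paneth/goblet-like (0.711 to 0.872) and 0.806 in enteroendocrine-like cells (0.700 to 0.924), and the last 3 intervals overlap. Its log2 ratio of enterocyte-like over stem-like cells was -1.37 in the control and -1.39 in Taf4 IEC enteroids. In both libraries it was thus highest in stem-like cells among the classes of over 20 cells, while the chain-shortening enzymes were highest in enterocyte-like cells.

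**Figure D2:**
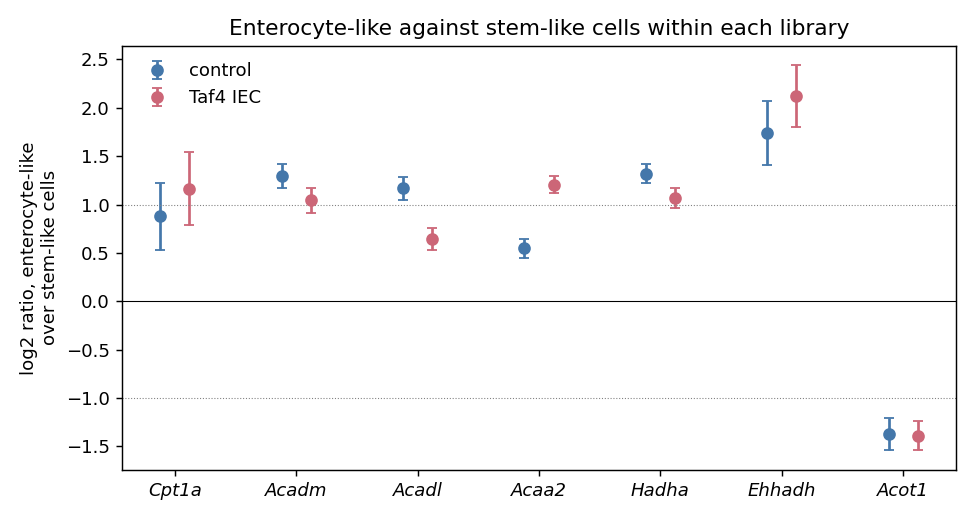
The log2 ratio of enterocyte-like over stem-like cells within control enteroids (blue) and the Taf4 IEC library (red) for the 7 counted genes, with 95% exact intervals for counting error; dotted lines mark 2-fold. All genes but Acot1 lie above 0 in both libraries, and Acot1 lies at -1.37 and -1.39.

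**Figure D3:**
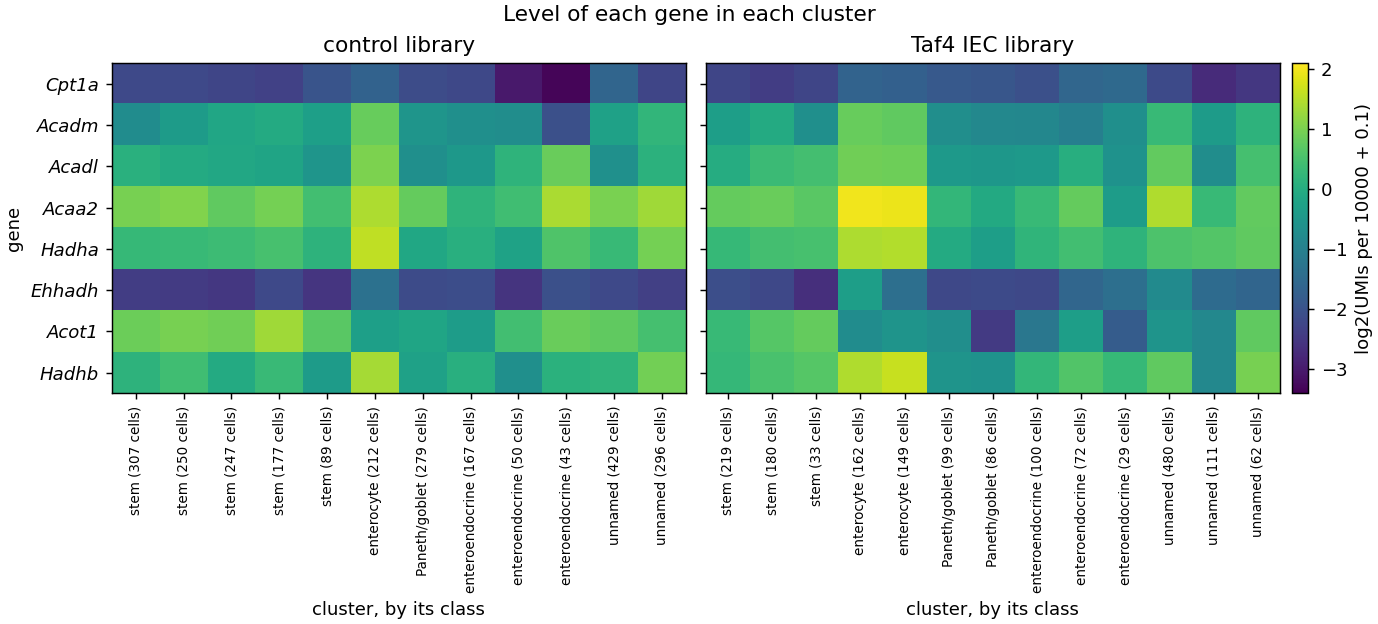
The level of the 7 counted genes and of Hadhb, as log2(UMIs per 10000 + 0.1), in each cluster of at least 20 cells, ordered by class and labelled with its number of cells. The enterocyte columns are the brightest for Acadm and Hadha in both libraries, and the highest value of Acot1 lies in a stem column in both.

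In stem-like cells none of the 7 was past 2-fold in either direction, where 5.94% of genes were higher and 3.91% lower, and their median log2 ratio was 0.11 beside 0.20 for all genes. In enterocyte-like cells none was past 2-fold, where 4.74% of genes were higher and 1.94% lower, and the median was -0.03 beside 0.10. Cpt1a, Acadm, Acadl and Hadha lay between -0.14 and -0.03 there. When the Taf4 IEC class levels were weighted by the control's share of UMIs in each class, the all-cell log2 ratios of Cpt1a, Acaa2 and Hadha were -0.10, -0.10 and -0.04, that of Acadm 0.06 and that of Acadl 0.27. The median of all genes was 0.20 under that weighting.

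The enterocyte-like values depend on the Tmem237-led clusters, which count in the class in Taf4 IEC enteroids and not in the control. With the control cluster joined to the class, the members' median log2 ratio in enterocyte-like cells was 0.30 instead of -0.03. No median of all genes is given for the joined class, so a shift common to most genes was not tested there. Hadha then stood at 2.33 UMIs per 10000 in control enteroids and 2.62 in Taf4 IEC enteroids, a log2 ratio of 0.17 (interval 0.09 to 0.26). The ratios of Cpt1a, Acadm and Acadl were 0.42, 0.28 and 0.30, each with an interval above 0. As named, the intervals of Cpt1a (-0.39 to 0.34) and Acadm (-0.15 to 0.10) held 0. Those of Acadl (-0.25 to -0.01) and Hadha (-0.24 to -0.04) lay below it, so the sign of these last 2 changed with the join. Over the 10 alternatives for the class, Cpt1a lay below 0 in 5, Acadm in 6, Acadl in 9 and Hadha in 8. With the same join the all-cell ratios at control class shares were 0.07 for Cpt1a, 0.10 for Acaa2 and 0.13 for Hadha, beside a median of 0.17 for all genes.

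Acaa2 and Ehhadh were higher in enterocyte-like cells under either naming, with log2 ratios of 0.61 and 1.38 when the Tmem237-led control cluster was joined. As named, Acaa2 stood at 2.59 in control enteroids (interval 2.45 to 2.75) and 3.79 in Taf4 IEC enteroids (3.67 to 3.92), for a log2 ratio of 0.55 (0.45 to 0.65), whereas in stem-like cells it stood at 1.78 and 1.65, a log2 ratio of -0.11. Ehhadh stood at 0.294 (0.245 to 0.349) and 0.487 (0.443 to 0.535), for a log2 ratio of 0.73 (0.44 to 1.02). With cells thinned to 2000 UMIs the Ehhadh log2 ratio was -0.06, and 6.90% of 203 control and 6.79% of 265 Taf4 IEC enterocyte-like cells then held a UMI of it, so few that the ratio was not measurable at that depth. At full depth 38.2% and 55.9% of the cells did. Such shares also rise with depth, and the median UMIs per cell of these classes were 21748.5 and 35006.

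The enterocyte-like cells of the Taf4 IEC library formed an Apoa1-high cluster of 162 cells (Apoa1 at 29.3 UMIs per 10000) and an Apoa1-low cluster of 149 cells (2.71) that was led by Tmem237 and not by an enterocyte marker, while those of the control formed 1 cluster (15.8), its own Tmem237-led cluster of 296 cells being outside the class. Another control cluster, of 17 shallow cells (median 2723 UMIs), had 5 enterocyte markers but stayed unnamed under the depth rule. It held Ehhadh at 1.29 from 6 UMIs and Acaa2 at 4.94 from 23 UMIs. The Tmem237-led clusters of the libraries differed in Apoa1 (0.227 and 2.71) and in Lgr5 (1.44 and 0.409). Between them the log2 ratio of Taf4 IEC over control was -1.15 for Acot1 (-1.36 to -0.95). For the other counted members it ran from 0.53 for Hadha (interval 0.40 to 0.65) to 1.56 for Ehhadh (1.08 to 2.07). No median or share of all genes is given for this pair of clusters, so a shift common to most genes was not tested. Ehhadh stood at 0.701 in the Apoa1-high cluster and 0.284 in the Apoa1-low cluster, and the latter value is close to the 0.294 of the control. The other 6 counted members differed between both Taf4 IEC clusters by log2 ratios between -0.22 and 0.08. With the Apoa1-high cluster alone set against the control cluster, the log2 ratio was 1.25 for Ehhadh (interval 0.95 to 1.56) and 0.57 for Acaa2, and 2.65% of 7427 genes were at least 2-fold higher and 2.42% lower in that comparison. This choice of clusters was made after seeing the data, and the clusters also differ in Apoa1.

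Acot1 was lower in Taf4 IEC enteroids in each of the 4 classes, and most so in the secretory classes. In stem-like cells it stood at 1.85 in the control and 1.43 in Taf4 IEC enteroids, a log2 ratio of -0.37 (interval -0.46 to -0.28). In enterocyte-like cells it stood at 0.715 and 0.546, a log2 ratio of -0.39 (-0.60 to -0.18), or -0.92 with the Tmem237-led control cluster joined. In Paneth/goblet-like cells 377 UMIs in control enteroids (0.788) faced 40 in Taf4 IEC enteroids (0.133), for a log2 ratio of -2.57 (-3.08 to -2.10). It was the one member past 2-fold in that class, where 4.12% of 8060 genes were at least 2-fold lower and 3.76% higher. In enteroendocrine-like cells it stood at 0.806 and 0.331, a log2 ratio of -1.28 (-1.67 to -0.91), again the one member past 2-fold, where 1.65% of 8040 genes were lower and 5.67% higher, though the ratio was -0.94 as a mean over cells and -0.64 with cells thinned to 2000 UMIs.

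The Paneth/goblet-like value depends on which cells are weighed. The Taf4 IEC class joins 86 deep cells (median 32360 UMIs) with Acot1 at 0.0822 and 99 shallow cells (median 958 UMIs) with Acot1 at 0.523 from 18 UMIs, and a mean that gives every cell the same weight had a log2 ratio of -0.70. Thinned to 2000 UMIs, 11.0% of 272 control cells held an Acot1 UMI and 4.63% of 108 Taf4 IEC cells, with 95% intervals of 7.57% to 15.4% and 1.52% to 10.5% that overlap; at full depth the shares were 50.2% and 15.1%. The class itself also differed between the libraries: the stem marker Lgr5 stood at 1.41 in the control class and 0.808 in the Taf4 IEC class, and Lyz1 at 22.8 and 114. Control stem-like cells held the highest Acot1 level, and the part of such cells in this difference was not tested. Acaa2 was also lower in Paneth/goblet-like cells, at 1.65 and 0.881 (log2 ratio -0.91), and this was -0.11 as a mean over cells.

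**Figure D4:**
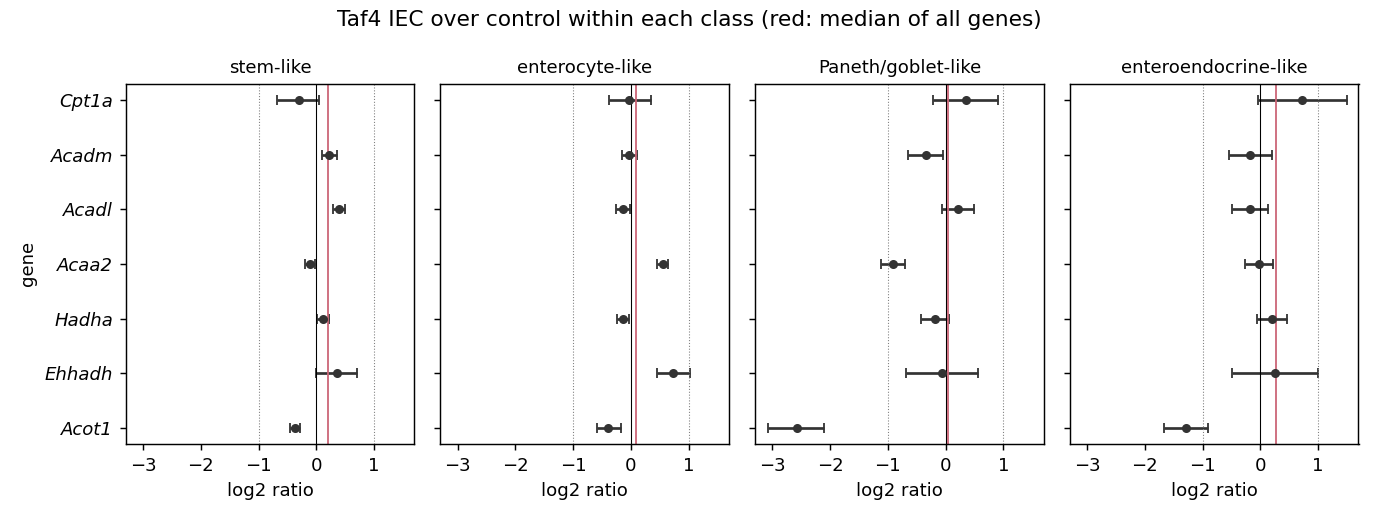
The log2 ratio of Taf4 IEC over control for the 7 counted genes in each of 4 cell classes, with 95% exact intervals for counting error, dotted lines at 2-fold and the median of all genes in red. Acot1 lies left of 0 in every panel, at -2.57 in Paneth/goblet-like cells, and Acaa2 lies right of 0 in enterocyte-like cells alone, the class whose Tmem237-led cells come from Taf4 IEC enteroids only.

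Among the pathway's other genes, a list of 91 of which 80 were counted, 4 were at least 2-fold higher over all cells in Taf4 IEC enteroids and 1 was lower, shares of 5.00% and 1.25% beside 5.52% and 3.48% of all genes, and the median log2 ratio was 0.30. Acad11, an acyl-CoA dehydrogenase, had a log2 ratio of 1.27, the peroxisomal thioesterase Acot4 1.79 from 78 and 169 UMIs, the nuclear receptor Ppard 1.15 and the fatty acid hydroxylase Cyp4f14 1.82. Angptl4, a secreted inhibitor of lipoprotein lipase and a Ppar target, had a log2 ratio of -1.26 from 226 and 59 UMIs. In enterocyte-like cells the log2 ratios of the 4 higher genes were 0.18, 0.80, 0.34 and 0.11 in that order, so none was past 2-fold there.

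By step, 13 of 14 counted peroxisomal genes were above 0 over all cells, where 65.3% of all genes were, with a median log2 ratio of 0.60. In enterocyte-like cells the peroxisomal median was 0.11, and Acox2 (-1.17) and Acaa1b (-1.39) were past 2-fold lower. Acaa1b shares 38.8% of the 50-base words of its transcript end with Acaa1a, which leaves its count uncertain. All 14 counted peroxisomal genes were higher in control enterocyte-like than control stem-like cells, 13 of them by at least 2-fold, where 36.5% of all genes were higher and 12.8% by that much. The 15 other genes of mitochondrial beta oxidation had a median of 0.26 over all cells with 12 above 0, the 3 counted genes of the carnitine shuttle a median of 0.53, the 9 of pyruvate dehydrogenase and its regulators 0.13 and the 9 of fatty acid synthesis -0.08.

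In enterocyte-like cells, 2 of the 78 counted pathway genes were at least 2-fold higher and 5 lower, where 4.74% of all genes were higher and 1.94% lower. Beside Acox2 and Acaa1b these were Eci1, an enoyl-CoA isomerase (0.708 to 1.74 UMIs per 10000, log2 ratio 1.30), and Oxct1, which starts the use of ketone bodies (0.248 to 0.593, log2 ratio 1.26), both higher in Taf4 IEC enteroids. Lower by more than 2-fold were Angptl4 (-2.06 from 44 and 22 UMIs), the monoglyceride lipase Mgll (-1.51 from 67 and 49 UMIs) and Creb3l3 (-1.47), a membrane-bound transcription factor of lipid metabolism. Mgll and Creb3l3 had log2 ratios of 0.75 and 0.28 over all cells, the opposite sign. These values join both Taf4 IEC clusters of the class and leave out the Tmem237-led cluster of the control. Over all cells, the fatty acid carrier Cd36 gave 12 UMIs in Taf4 IEC enteroids (0.00480 UMIs per 10000, interval 0.00248 to 0.00839) and none in the control, which allows up to 0.000923. It lay under the filter of 200 UMIs. Of its UMIs 10 were in enterocyte-like cells (0.0109 UMIs per 10000). That class gave 36.7% of all Taf4 IEC UMIs and 11.0% of all control UMIs, and the part of this unlike share was not tested.

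Of the ketone body genes, Bdh1, which interconverts ketone bodies, stood at 0.538 UMIs per 10000 in the control and 0.484 in Taf4 IEC enteroids over all cells, a log2 ratio of -0.15 (interval -0.26 to -0.05). Oxct1 stood at 0.600 and 0.720, a log2 ratio of 0.26 (interval 0.17 to 0.35).

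**Figure D5:**
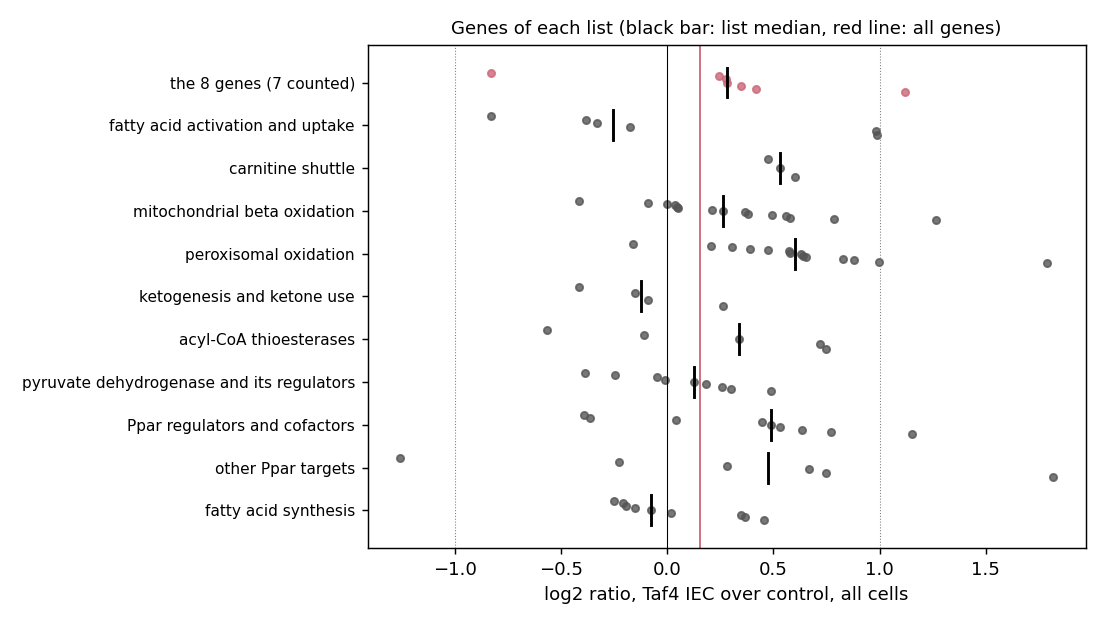
The log2 ratio of Taf4 IEC over control over all cells for each counted gene of the pathway lists, with a black bar at each list's median, a red line at the median of all genes and dotted lines at 2-fold. The members' points lie close together around 0.28 except Acot1 on the left and Ehhadh on the right, and the peroxisomal list has 13 of its 14 points above 0, where 65.3% of all genes lie.

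Across the 25 clusters of both libraries with at least 20 cells, the genes whose level most closely followed the summed level of the 8 members were Atp5c1 (Pearson r 0.95), Ccl25 (0.93), Ndufb5 (0.93), Hadh (0.92) and Atp5d (0.92). Hadh is the next dehydrogenase of beta oxidation, and Atp5c1, Atp5d and Ndufb5 encode subunits of the respiratory chain and ATP synthase. Set against the sum of the other 7, Acaa2 (0.87), Hadha (0.77) and Acadl (0.75) followed it closely, Acadm (0.55) and Ehhadh (0.35) less so, and Acot1 (0.19) and Cpt1a (-0.03) hardly. These clusters share 2 libraries and differ in depth, whose own r with the sum was 0.12, so the values are a description.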

How the data were processed

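Single cells from 1 control and 1 Taf4 IEC enteroid library were captured by 10x 3′ RNA-seq. The deposited files hold raw UMI counts per gene and cell, not normalised; per the labels and the study's methods the authors made them with Cell Ranger 3.1 on mm10, and unexpressed genes were removed. The authors also named bcl2fastq 2.17.1.14 and Seurat 3.1.4. All deposited cells were used. Counts were summed over cells and divided by all UMIs of the same cells, per 10000. Intervals at 95% were exact Poisson (levels), exact conditional binomial (ratios) and Clopper-Pearson (shares). A gene was counted with at least 200 UMIs over both libraries, or 50 within a class, and called at 2-fold. No p-value was computed, since each group is 1 library.

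Each library was clustered alone in Seurat 5.3.0 (R 4.3.3; LogNormalize, 2000 variable genes less the 20 or 21 that belong to the pathway, UMI count and mitochondrial percent regressed out, 20 principal components, resolution 0.9). A cluster was named when at least 3 markers of a class had 10 UMIs and 1.5 times the mean level of both libraries, and stayed unnamed where another class had more markers among the 10 genes leading it, or where none of its own was there beside low-quality RNA genes or a median depth under 0.333 of the library's. Scrublet (scanpy 1.11.5) predicted 10 and 0 doublets, which were kept in, and doublets it missed remain. The counting steps ran in Python 3.11.15 with scipy 1.17.1, pandas 2.3.3 and numpy 2.4.6 and were tested on simulated data.

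All 8 members are named; of the listed pathway genes, those past 2-fold over all cells or in enterocyte-like cells, with others given as examples of a step, some of the listed genes not being reported here; and the 5 genes most like the members' sum by Pearson r of log2(UMIs per 10000 + 0.1). The members, gene lists and naming rule were chosen with earlier results of these data known. Promoters came from RefSeq (GRCm38.p6); transcript ends were compared by sequence alone.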

Additional observations from a re-analysis of the deposited data

Results flagged for a closer look

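The difference between libraries had opposite signs in different cell classes for 4 of the genes, with intervals that exclude 0 on both sides; each gap below is between log2 ratios of Taf4 IEC over control, and with 1 library per group the difference was not tested. The median of all genes was itself above 0, at 0.20 in stem-like, 0.10 in enterocyte-like and 0.04 in Paneth/goblet-like cells. Hadha in stem-like cells (0.11) lay below that median, and Acadm there (0.23) lay close to it. For Acaa2 the ratio in enterocyte-like cells exceeded that in Paneth/goblet-like cells by 1.46. For Acadm the ratio in stem-like cells exceeded that in Paneth/goblet-like cells by 0.574. For Acadl the stem-like ratio exceeded the enterocyte-like ratio by 0.528, and for Hadha by 0.250; with the control's Tmem237-led cluster joined to the enterocyte-like class (after seeing the data), the enterocyte-like ratios were 0.30 for Acadl and 0.17 for Hadha, above 0 like the stem-like ones. The Paneth/goblet-like classes of the libraries also differed in depth, with median UMIs per cell of 16642 for control and 6128 for Taf4 IEC cells. The Acadm ratio in Paneth/goblet-like cells ranged from -0.71 to 0.53 over its 8 alternatives, and the Hadha ratio in stem-like cells from -0.07 to 0.14.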

How the results depend on the processing

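No paired analysis was possible because the labels give no replicate numbers and each group is 1 library, so no replicate could be left out. The alternatives that weight classes as in the control, drop the secretory-like cells, use the Apoa1-high clusters alone or join the control's Tmem237-led cluster to the enterocyte-like class were chosen after seeing the data. The median log2 ratio of the members over all cells (0.28) was 0.10 with mitochondrial, ribosomal, Gm42418 and AY036118 RNA out of the total, 0.13 under median-ratio scaling, -0.038 at control class shares (0.13 with that cluster joined) and 0.42 without secretory-like cells. In the same order the median of all genes (0.16) was -0.03, 4.8e-05, 0.20 (0.17 with that cluster joined) and 0.10. The number of members past 2-fold higher was 0 with that RNA out, under median-ratio scaling, thinned to 2000 UMIs and at control class shares with or without that join; the number lower was 1 with that RNA out and 1 at 1.5-fold. Of all genes past 2-fold, 61.3% were higher, against 45.0% with that RNA out and 47.4% under median-ratio scaling. Pathway genes past the fold numbered 1 higher and 0 lower as a mean over cells, 1 and 0 when thinned, and 20 and 2 at 1.5-fold, and 2 were lower with that RNA out. In stem-like cells the members' median (0.11) was -0.18 with the libraries clustered together, -0.0065 with that RNA out and -0.0049 when thinned. The stem-like class itself depended on the clustering. Clustered together, it held 984 control and 42 Taf4 IEC cells, while 963 and 1222 cells stayed unnamed. At resolution 0.5 it held 1067 and 212 cells. In enterocyte-like cells the members' median (-0.03) was -0.22 as a mean over cells and 0.30 with that cluster joined. No median of all genes is given for the joined class. Of the members, 5 were at least 2-fold higher in Taf4 IEC enterocyte-like than stem-like cells, against 2 as a mean over cells, 3 with that RNA out and 2 when thinned. In the control 4 were, against 2 with that cluster joined, and no share of all genes is given for these alternatives. The cause of these moves was not tested. Acot1 stayed below 0 in all 11 alternatives over all cells (-1.02 to -0.49) and in all 8 within Paneth/goblet-like (-2.82 to -0.70) and enteroendocrine-like cells (-1.52 to -0.64), and Acaa2 in enterocyte-like cells lay between 0.44 and 0.73 in 10. Of 450 single-gene values under alternatives, 324 stayed within their counting interval and 126 did not. Of the headline values under alternatives, such as the members' medians and counts, 56 were classed as unchanged and 28 as moved. Depth limits Pdk4 (4 UMIs per library), and Cpt1a and Ehhadh in the secretory-like classes and, when thinned to 2000 UMIs, in enterocyte-like cells.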
